A study of Sus scrofa with 18 samples.

Results

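The proneural basic helix-loop-helix (bHLH) transcription factors NEUROG1, NEUROG2, ATOH1, NEUROD1, NEUROD2, NEUROD4 and NEUROD6 were followed through fetal brain development of the domestic pig. The 7 genes were taken by their names from the gene table, where each name had exactly 1 row among 31908 genes. Each library is the whole brain of 1 fetus, carried by a Landrace × Large White gilt inseminated with LR-M6 semen, with no treatment in any group. Brains of 3 female and 3 male fetuses were taken at gestation day (GD) 45, 60 and 90, which gives 6 groups and 18 libraries. On each day every female had a male of equal litter size, so each such pair may share a dam. The libraries of a day may then not be independent. The edgeR p-values come from a fit with no litter term, which takes all libraries as independent. Replicates are named by the piglet number of the labels.

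Proneural bHLH factors bind E-box DNA motifs as dimers with E proteins such as TCF3, and push dividing neural progenitors to leave the cell cycle and become neurons. The neurogenins act early in this cascade, in progenitors of the dorsal telencephalon, midbrain, hindbrain and sensory ganglia. ATOH1 is required in the rhombic lip for granule neurons of the cerebellum, and the NeuroD factors mostly act later, in differentiating and mature neurons.

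The stretch that encodes the basic region and the start of the first helix is shown as the part that contacts DNA. It was located by a fixed amino acid pattern that each gene had to match. Part of the identity between the genes was thus set by the search. The stretch was read from the RefSeq coding sequence on the Sscrofa11.1 build, the build of the deposited tables, 5′ to 3′ on the coding strand. Capitals mark the bases that are identical in all 7 genes.
NEUROG1: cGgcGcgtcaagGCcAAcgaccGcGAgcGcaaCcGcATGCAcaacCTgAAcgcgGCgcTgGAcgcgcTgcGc
NEUROG2: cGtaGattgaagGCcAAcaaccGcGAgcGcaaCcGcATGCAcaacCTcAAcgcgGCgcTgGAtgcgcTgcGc
ATOH1: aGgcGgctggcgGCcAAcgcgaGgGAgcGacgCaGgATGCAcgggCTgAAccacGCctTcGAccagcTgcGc
NEUROD4: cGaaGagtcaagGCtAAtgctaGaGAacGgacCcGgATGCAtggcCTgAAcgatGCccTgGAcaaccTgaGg
NEUROD1: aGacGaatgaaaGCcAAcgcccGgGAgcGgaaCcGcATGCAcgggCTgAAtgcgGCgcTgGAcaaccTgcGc
NEUROD2: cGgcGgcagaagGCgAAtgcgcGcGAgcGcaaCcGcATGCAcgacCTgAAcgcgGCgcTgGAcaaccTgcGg
NEUROD6: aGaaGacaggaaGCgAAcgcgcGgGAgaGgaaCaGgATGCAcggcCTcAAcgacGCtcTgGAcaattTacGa

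Of the 72 bases, 28 were shared by all 7 genes, in part through the pattern used to locate the stretch. Pairs were identical at 42 bases (58.3%, NEUROG2 and ATOH1) to 64 bases (88.9%, NEUROG1 and NEUROG2), and NEUROG1 was at 81.9% with NEUROD2. The stretches lie at chr2:137766326-137766397 on the minus strand for NEUROG1, chr8:110201497-110201568 on the plus strand for NEUROG2, chr8:125769762-125769833 on the minus strand for ATOH1 and chr5:20054556-20054627 on the plus strand for NEUROD4. Those of the other NeuroD genes lie at chr15:87177760-87177831 on the minus strand for NEUROD1, chr12:22711329-22711400 on the plus strand for NEUROD2 and chr18:41762308-41762379 on the plus strand for NEUROD6. All lie within coding exons.

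The annotation limits the values of several genes. In the deposited table NEUROG1 (chr2:137765942-137766682, 741 bases), NEUROG2 (chr8:110201161-110201979, 819 bases) and ATOH1 (chr8:125769246-125770307, 1062 bases) are single exons that equal the coding part. The RefSeq exons of each gene, merged over its transcripts, also hold untranslated sequence of 2956, 4207 and 1326 bases. Reads from that sequence were not counted for these genes. The 4 NeuroD models have 2 exons each and include untranslated sequence, at 2615 bases for NEUROD1, 3017 for NEUROD2, 5183 for NEUROD4 and 1973 for NEUROD6. That of NEUROD6 is 38.2% of the 5163 bases of its merged RefSeq exons, and that of NEUROD4 is longer than its 3508 bases of merged RefSeq exons. The exons of NEUROD6 share no base with ITPRID1, the gene on the opposite strand whose span covers it.

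Library totals ranged from 15118843 to 19729783 counts. Levels are given in CPM, the count of a gene scaled to the size of its library with TMM (the trimmed mean of M-values), where 3 counts correspond to 0.153 to 0.233 CPM. A count of 0 therefore allows a level up to that of 3 counts, for counting error only. Male GD45 replicate 17 stands apart from the other libraries. Its share of counts on first exons was 5.39%, the lowest, followed by 6.01% in female GD60 replicate 15, against 6.70% to 9.49% in the rest. TMM also raised the CPM of male GD45 replicate 17, where 3 counts were 0.233 CPM at a total of 15170183 counts. In male GD90 replicate 10, with a total of 15118843, they were 0.197 CPM. In bulk tissue, fewer cells of a type and less RNA per cell cannot be told apart.

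By mean level most of these factors were highest at GD45. From GD45 to GD60 only NEUROG1, NEUROD4 and, in females, NEUROG2 passed the test. NEUROG1, NEUROG2 and NEUROD4 are factors of progenitors and newly formed neurons. At GD90 NEUROG1 and NEUROD4 were near the limit of counting, and NEUROG2 had 2 to 20 counts a library. NEUROG2 had 2.10% and NEUROD4 1.03% of the GD45 mean level left, and NEUROG1 had at most 2 counts a library, while NEUROD2 and NEUROD6, which mark cortical projection neurons, still had 30.3% and 25.8%. NEUROD1 did not pass the test in any comparison, and ATOH1 was low, and uneven within most groups.

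NEUROG1, which specifies sensory and cranial neurons and acts in dorsal telencephalic progenitors, had 6.07, 6.0 and 11.5 CPM in female GD45 replicates 12, 13 and 18. In the males of GD45 it had 5.80, 6.27 and 11.7 CPM in replicates 11, 14 and 17. The 2 high libraries have the same litter size, 8, and the lightest brains of that day, labelled 0.6653 and 0.7135 against 1.55 to 1.86 for the others in the unit of the labels; their part in the NEUROG1 level was not tested. At GD60 the level was 0.898, 1.13 and 0.731 CPM in females and 0.519, 0.598 and 1.60 CPM in males, so no library of GD60 reached the lowest of GD45. NEUROG1 fell by 3.09 on the log2 scale in females (SE 0.49, 95% interval -4.12 to -2.06, edgeR adjusted p = 0.00121) and by 3.13 in males (SE 0.49, edgeR adjusted p = 0.00129). At GD90 the counts were 2, 1 and 0 in females and 0, 0 and 2 in males, at or under the floor of 3 counts per library. Between GD60 and GD90 the estimate was -3.69 for females (edgeR adjusted p = 0.00276) and -4.21 for males (edgeR adjusted p = 0.00162), a further decrease whose size depends on the small number added to counts near 0. From the summed counts, 47 against 3 in females and 44 against 2 in males, the ratio of GD60 to GD90 was 14.2 (exact 95% counting interval 4.57 to 71.2) and 21.5 (5.60 to 183), for counting error only.

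NEUROG2, the neurogenin of cortical progenitors, had the highest level per kb of the early factors. It had 35.0, 39.1 and 44.1 CPM in females of GD45 and 37.1, 51.2 and 15.0 CPM in males, the low value being replicate 17. At GD60 it had 13.1, 17.3 and 7.52 CPM in females, the last in replicate 15, and 12.4, 18.0 and 9.99 CPM in males. Females did not overlap between these days, while the male libraries overlapped because of replicate 17. The change was a decrease of 1.64 on the log2 scale in females (SE 0.41, edgeR adjusted p = 0.0231). In males the estimate was -1.36 (SE 0.41, 95% interval -2.23 to -0.49, edgeR adjusted p = 0.0654), which did not pass, and without male GD45 replicate 17 it was -1.73 with an adjusted p = 0.00468. Leaving out each male library of these days in turn gave -1.73 to -0.96, with an adjusted p of 0.212 without GD45 replicate 14 and 0.227 without GD60 replicate 16. The interaction with sex was not called. The female call was lost on leaving out replicate 13 (adjusted p = 0.0595) or 18 (0.0796) of GD45, or replicate 3 (0.0801) or 15 (0.0672) of GD60. At GD90 it had 0.120, 1.06 and 0.728 CPM in females and 1.17, 0.986 and 0.591 CPM in males, from 2 to 20 counts a library. NEUROG2 fell by 4.32 on the log2 scale in females (SE 0.55, edgeR adjusted p = 2.5e-05) and fell by 3.85 in males (SE 0.52, edgeR adjusted p = 4.2e-05). Relative to NEUROG2, NEUROG1 had 12.2% to 26.1% of its CPM in 5 of the 6 GD45 libraries and 78.2% in male replicate 17.

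NEUROD4, expressed as progenitors leave the cycle, had 22.6, 20.9 and 25.5 CPM in GD45 females and 22.4, 28.6 and 19 CPM in GD45 males. At GD60 it had 5.75, 9.22 and 5.22 CPM in females and 6.29, 6.22 and 5.38 CPM in males, with no overlap between the days. NEUROD4 fell by 1.77 on the log2 scale in females (SE 0.25, edgeR adjusted p = 6.3e-04) and fell by 1.97 in males (SE 0.26, edgeR adjusted p = 3.7e-04). At GD90 2 to 8 counts were left in each library, 0.120 to 0.470 CPM, and the further log2 change was -4.93 in females (edgeR adjusted p = 1.8e-07) and -4.44 in males (edgeR adjusted p = 3.7e-07). In male GD45 replicate 17 and female GD60 replicate 15, the libraries lowest in first exon counts, NEUROD4 had 0 counts on its first exon, against 10 to 38 and 2 to 8 in the other libraries of each day.

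**Figure D1:**
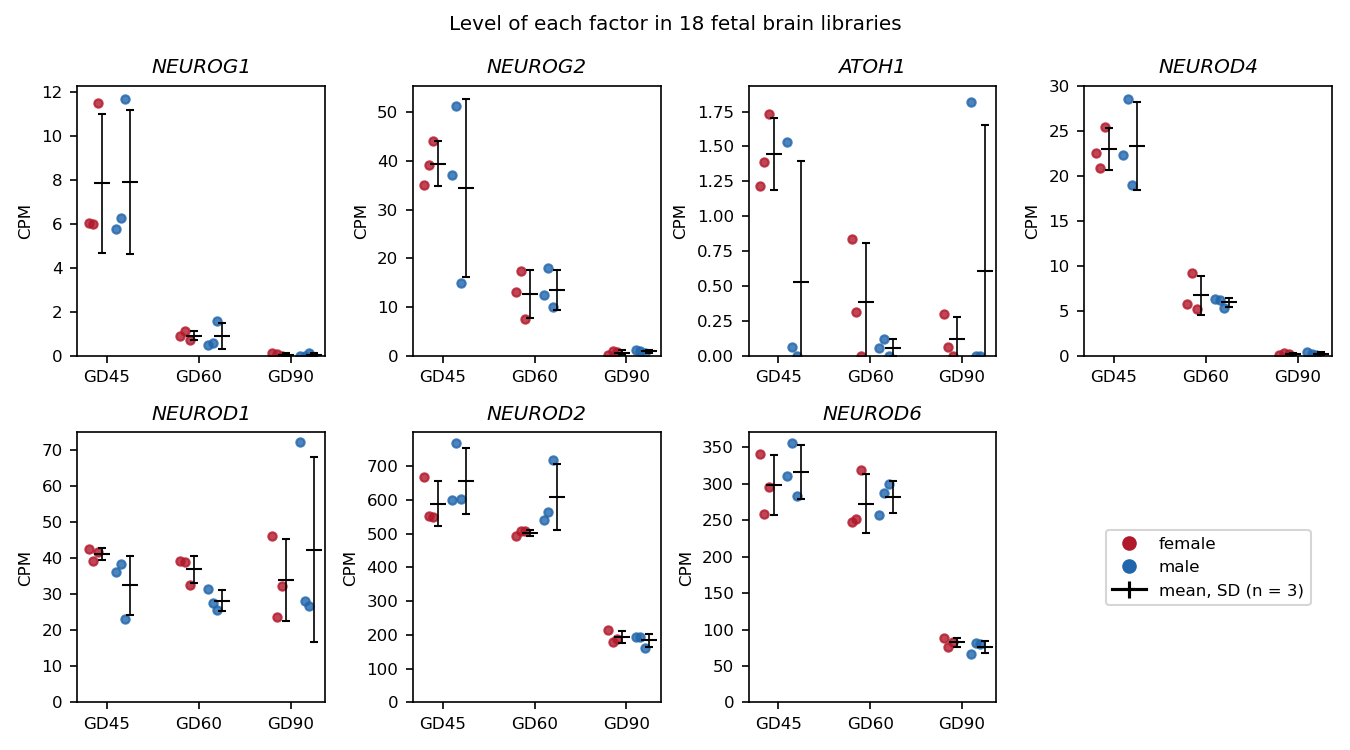
CPM of each factor in every library (points, females red and males blue) at GD45, GD60 and GD90, with group mean and SD (n = 3, vertical bars). NEUROG1, NEUROG2 and NEUROD4 are near 0 at GD90, NEUROD2 and NEUROD6 stay at or above 67.1 CPM there, and NEUROD1 has 1 library at 72.2 CPM.

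NEUROD2, a factor of maturing cortical neurons, had the highest level per kb of the 7 genes. It had 667, 552 and 548 CPM in GD45 females, 598, 769 and 603 CPM in GD45 males, and at GD60 493, 507 and 507 CPM in females and 540, 565 and 719 CPM in males. The difference from GD45 to GD60 did not pass the test, at -0.23 in females (95% interval -0.52 to 0.06) and -0.11 in males (-0.41 to 0.18). At GD90 the level was 214, 180 and 187 CPM in females and 194, 195 and 162 CPM in males, below every GD60 library. NEUROD2 fell by 1.38 on the log2 scale in females (SE 0.14, edgeR adjusted p = 3.2e-06) and fell by 1.72 in males (SE 0.14, edgeR adjusted p = 3.9e-07).

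NEUROD6, which also marks pyramidal neurons of the cortex and hippocampus, was next in level. It had 259 to 341 CPM in females and 283 to 356 CPM in males at GD45, and 248 to 319 and 257 to 300 CPM at GD60, with differences of -0.13 (95% interval -0.42 to 0.16) and -0.17 (-0.46 to 0.12). At GD90 it had 88.1, 76.2 and 83.4 CPM in females and 67.1, 81.9 and 80.0 CPM in males. NEUROD6 fell by 1.72 on the log2 scale in females (SE 0.14, edgeR adjusted p = 3.3e-07) and fell by 1.88 in males (SE 0.14, edgeR adjusted p = 1.6e-07). Over the 18 libraries the log2 CPM of NEUROD2 and NEUROD6 had r = 0.98, and r = 0.54 after group means were removed, while for NEUROG2 and NEUROD4 the values were 0.98 and 0.75; all libraries share the 3 gestation days, so these are descriptions.

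NEUROD1, which acts in granule neurons of the cerebellum and dentate gyrus and in endocrine cells, had 42.7, 39.3 and 41.7 CPM in GD45 females and 36.1, 38.4 and 23.2 CPM in males. At GD60 it had 39.3, 39.1 and 32.7 CPM in females and 31.5, 27.7 and 25.6 CPM in males. At GD90 it had 46.2, 23.6 and 32.3 CPM in females and 72.2, 28.3 and 26.9 CPM in males. Replicate 1 of the GD90 males was above every other library, and the other 2 GD90 males lay within the range of the GD60 males. No comparison passed the test. Estimates of the change between successive days ran from -0.21 (95% interval -0.87 to 0.45, males GD45 to GD60) to 0.59 (-0.07 to 1.25, males GD60 to GD90), and the latter was -0.03 without male GD90 replicate 1.

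ATOH1 was the rarest factor at GD45 and GD60. It had 24, 25 and 30 counts in GD45 females and 29, 1 and 0 counts in GD45 males (replicates 11, 14 and 17), 14, 5 and 0 and 1, 2 and 0 counts at GD60, and 5, 1 and 0 and 31, 0 and 0 counts at GD90. The females of GD45 lay above all females of GD60, as for 14.2% of all genes tested. The male groups of GD45 and GD90 each held 1 library with about 30 counts and 2 with 0 or 1. The estimate was -1.92 in females (95% interval -4.57 to 0.73) and -3.10 in males (-6.86 to 0.66) from GD45 to GD60, and -1.51 (-5.05 to 2.02) and 3.21 (-0.53 to 6.95) from GD60 to GD90. The male GD90 estimate rests on replicate 1, and was -3.17 without it.

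Other genes of the cerebellar lineages were uneven in some of the same libraries. BARHL1, a target of ATOH1 in granule precursors, had 32.2 to 42.8 CPM in 5 libraries of GD45 but 8.71 in male replicate 14, where ATOH1 had 1 count. Male GD45 replicate 17 went the other way, with no ATOH1 count and the highest BARHL1, 42.8 CPM, a rank that was not recomputed without TMM. BARHL1 had 1.09 CPM in male GD60 replicate 16 against 7.78 to 16.0 in the rest of GD60. At GD90, BARHL1 had 18.2 CPM in male replicate 1 and 10.8 in female replicate 2, of the same litter size, against 1.60 to 2.10 in the other 4 libraries. In these 2 libraries ZIC1 had 105 and 53.3 CPM against 20.4 to 27.2, and CBLN1, a cerebellin of granule cells, had 98.0 and 83.5 against 33.5 to 48.1. They also had the highest NEUROD1 of that day, 72.2 and 46.2 CPM, and the highest summed level of the 9 genes of the rhombic lip and granule cell list, 359 and 247 CPM against 124 to 135. The part of granule lineage RNA in the ATOH1 and NEUROD1 levels was not tested. PTF1A, the bHLH factor of cerebellar inhibitory neurons, had 0.470 CPM in male GD90 replicate 1, 0.0599 in female replicate 2 and no count in the other 4 libraries of GD90. ATOH1 and NEUROD1 had r = 0.75 over 18 libraries and 0.76 after group means were removed. ATOH1 had no count in 1, 2 and 3 libraries of GD45, GD60 and GD90, and at most 31 counts. Both r are thus descriptions near the floor, and how far they rest on male GD90 replicate 1 was not tested.

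**Figure D2:**
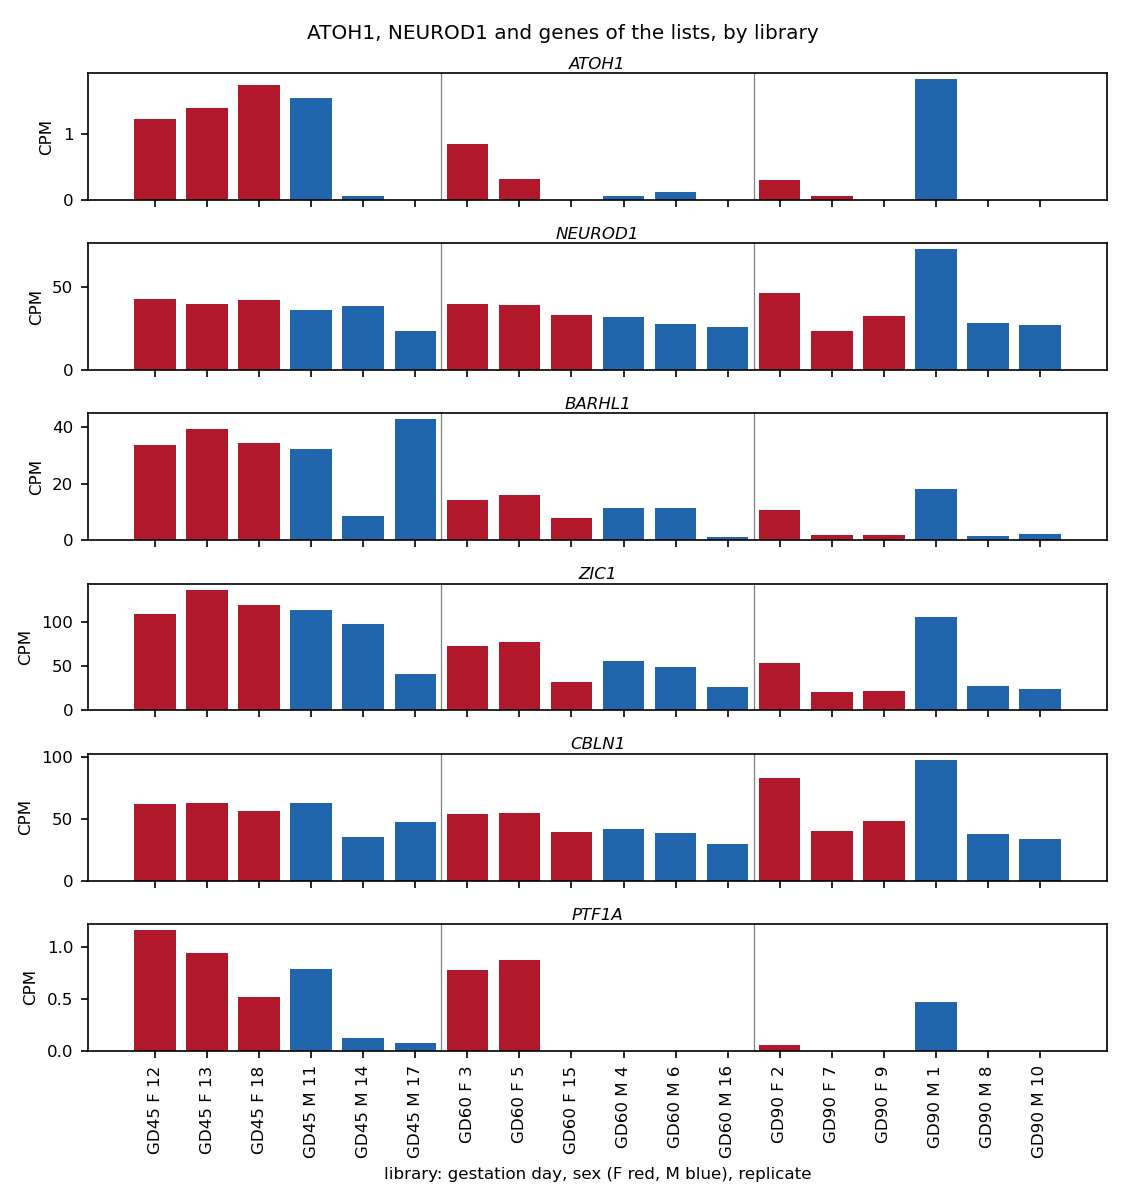
CPM of ATOH1, NEUROD1 and 4 genes of the fixed lists in each library (bars from 0, females red and males blue, vertical lines between gestation days). Male GD90 replicate 1 and female GD90 replicate 2 have more NEUROD1, BARHL1, ZIC1 and CBLN1 than the other 4 libraries of that day, and ATOH1 is at 1.82 CPM in the first.

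The calls are read against those of all genes tested. From GD45 to GD60, 3 of 7 members were called lower in females and 2 in males, where 2.88% and 2.53% of the 16325 genes tested were called lower, and none was called higher, against 4.34% and 3.08% of genes. Both male calls, NEUROG1 and NEUROD4, were lost when only the groups compared were fitted (edgeR adjusted p = 0.101 and 0.0761). From GD60 to GD90, 5 of 7 were called lower in each sex, against 13.4% and 16% of genes lower and 13.7% and 18.5% higher. Every library of GD60 was below every library of GD45 for 2 members, NEUROG1 and NEUROD4, as for 3.84% of genes. The same held for 5 members from GD60 to GD90, as for 11.2% of genes. Both periods share the GD60 libraries, so the calls of the periods are not independent.

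Between sexes, 0 members were called at any day by edgeR or DESeq2, and 0 at an unadjusted p under 0.05, where 0.0919%, 0.098% and 0.098% of genes were called by edgeR at GD45, GD60 and GD90. An unadjusted p under 0.05 was found for 423, 784 and 2213 of the 16325 genes on these days. The log2 differences of the 7 members, male minus female, ran from -1.32 to 0.16 at GD45, from -2.50 to 0.27 at GD60 and from -0.54 to 2.23 at GD90, where ATOH1 had the values -1.32, -2.50 and 2.23. The interaction of sex with the period called 0% of genes in either period by edgeR, no member among them. DESeq2 called 0 genes for the first period and 268 for the second, with 0 members in each. At an unadjusted p under 0.05 there were 333 and 3232 genes, and 0 members.

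**Figure D3:**
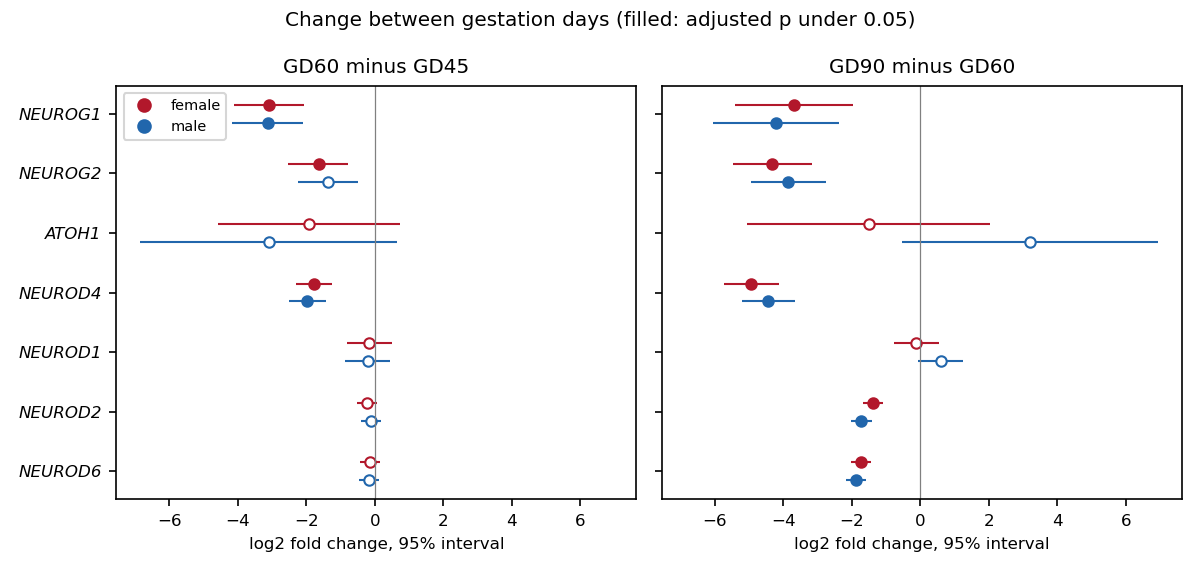
Log2 fold change with 95% interval of each factor over the earlier (GD45 to GD60, left) and the later period (right) in females (red) and males (blue), filled where the edgeR adjusted p is under 0.05. NEUROG1 and NEUROD4 are filled in both periods and both sexes, and NEUROD1 and ATOH1 in none.

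Length-scaled levels (CPM per kb of the gene model) order the members. At GD45 the order was NEUROD2 (206), NEUROD6 (156), NEUROG2 (45.1), NEUROD1 (14.1), NEUROG1 (10.7), NEUROD4 (4.47) and ATOH1 (0.931), and the libraries of neighbours overlapped only for NEUROD1 and NEUROG1. At GD60 NEUROG2 (15.9) overlapped with NEUROD1 (12.5), and NEUROG1 (1.23) with NEUROD4 (1.22). At GD90 NEUROD1 (14.6) had moved above NEUROG2 (0.948), without overlap, and the 4 lowest members overlapped in part. The order depends on the gene models, those of NEUROD6 and NEUROD4 as well as the 3 coding-only ones.

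**Figure D4:**
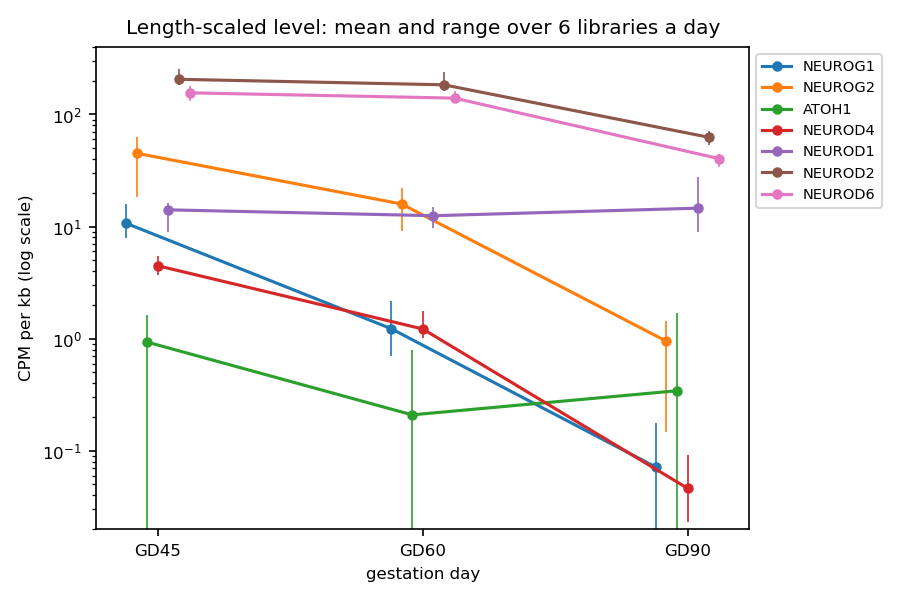
Mean (points) and range (vertical lines) of CPM per kb over the 6 libraries of each gestation day on a log scale; a range that includes 0 runs to the lower edge. NEUROD2 and NEUROD6 stay highest, and NEUROG2 passes below NEUROD1 by GD90.

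Partners and targets of the family were read from lists fixed with earlier results of these data known. Of the 13 bHLH partners and inhibitors, 3 were called lower in each sex from GD45 to GD60. They were ID4, an inhibitor of bHLH dimers (-0.98 in females and -1.09 in males), HES1, a Notch effector that represses proneural genes (-1.02 and -0.90), and TCF3, an E protein (-0.52 and -0.57). From GD60 to GD90, 3 were called higher and 3 lower in females and 1 higher and 4 lower in males, among them HEY1, a Notch effector (0.90 and 1.02), TCF3 (-0.89 and -0.86) and ID2 (-0.58 and -0.78). The list medians were -0.26 and -0.29 in the first period and 0.06 and -0.23 in the second, against medians of 0.012 and -0.037, then -0.022 and 0.007, over all genes tested.

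Of the 8 neurogenin targets and early neuronal genes tested, 1 in females and 3 in males were called lower from GD45 to GD60, and none higher. EOMES, a factor of intermediate progenitors, was called in both sexes (-1.68 and -1.69, adjusted p = 0.0434 and 0.0489). From GD60 to GD90, 5 were called lower in each sex and 1 higher in females, including EOMES (-4.33 and -2.95), MYT1 (-1.74 and -1.32) and the Notch ligand DLL1 (-0.97 and -0.99). EOMES had 6.17 CPM in male GD90 replicate 1 against 0.397 to 1.80 in the other GD90 libraries.

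Other neuronal bHLH factors gave 6 tested genes and no call from GD45 to GD60. From GD60 to GD90, 2 were called lower in females (NHLH1 and NHLH2) and none in males. Of the 8 rhombic lip and granule cell genes tested, 1 was called lower in females and 2 in males in the first period and 3 and 2 in the second, LHX9 in both periods and sexes (-1.06 and -1.16, then -1.53 and -1.41) and ROBO3 in the second (-0.82 and -0.59). Of the 6 forebrain projection neuron genes, 1 rose and 1 fell in each sex in the first period, FEZF2 falling in both (-1.15 and -1.08). In the second period 1 rose in females, and 2 rose and 1 fell in males, with SLC17A7, a glutamate transporter of mature neurons, rising in both (2.15 and 1.94).

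Cell type markers also changed over these periods, some lower and some higher. Of the 4 tested markers of cycling cells and radial glia, 4 fell in females and 3 in males in each period. All 4 oligodendrocyte markers tested rose in both sexes from GD60 to GD90, as did 3 of 4 astrocyte markers in females and 4 of 4 in males; in the first period 2 astrocyte markers rose in each sex and no oligodendrocyte marker passed. Of 6 neuron markers, 1 rose in each sex in the first period, and 3 rose in the second, with 1 lower in males. Their part in the member levels was not tested.

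Markers of hindbrain and spinal cord, and of neighbouring tissue, were uneven at GD45. The summed level of the 15 HOX genes was 6.38, 108 and 39.4 CPM in female GD45 replicates 12, 13 and 18 and 22.8, 0 and 3.34 CPM in male replicates 11, 14 and 17, and at most 2.87 CPM later. NEUROG1 was 6.27 CPM in male replicate 14, where no HOX gene was counted, and 6.0 CPM in female replicate 13, where they were highest. The part of hindbrain or cord tissue in the NEUROG1 level was not tested. Of 7 HOX genes tested, 4 were called lower in females and 0 in males from GD45 to GD60, and none later. Summed pituitary markers reached 28.3 CPM in female GD45 replicate 13, 12.4 in male GD45 replicate 17 and 63.3 in female GD60 replicate 15, against at most 1.15 elsewhere, and 0 of 2 tested were called. Of 5 sensory ganglion markers, 2 fell in females and 1 rose in males in the first period, and 1 rose and 1 fell in each sex in the second, with a summed level of 22 to 54.5 CPM at GD45 and 13.0 to 21.4 CPM later. Erythroid markers were highest in male GD45 replicate 17 (779 CPM summed, against 93.8 to 356 in the others), with 1 of 3 called lower in males in the first period and 2 in the second and none in females. Of 2 retina and 2 pancreas markers tested, none was called, and their part in the results was not tested.

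Genes with a pattern much like each member over 18 libraries were found among 12797 genes, as a description, and r after group means were removed is given second. NEUROG1 was closest to NEK2 (r = 0.991 and 0.82), TGIF1 (0.976 and 0.70) and KIF2C (0.976 and 0.65). NEUROG2 was closest to ZKSCAN7 (0.981 and 0.65), NAA40 (0.979 and 0.77) and DDX6 (0.970 and 0.60). NEUROD4 was closest to ZKSCAN7 (0.988 and 0.80), EZH2 (0.987 and 0.15) and CBX2 (0.987 and 0.58), and NEUROD6 to LIPG (0.981 and 0.23), DLX1 (0.980 and 0.30) and FBLIM1 (0.978 and 0.12). NCK2 (0.981 and 0.57) and DLX1 (0.980 and 0.31) were among the genes most like NEUROD2. NEUROD1 was closest to DUSP5 (0.858 and 0.86), CALB1 (0.848 and 0.85) and CBLN1 (0.824 and 0.83). Its level was highest in male GD90 replicate 1 (72.2 CPM), and how far these r rest on that library was not tested.

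E-box letters in the promoters are given as a description only. Among 19556 RefSeq protein-coding promoters (250 bases before to 50 after the gene start), 67.8% held CANNTG on either strand, and 14.3% held CAGATG or its reverse complement CATCTG, which are also matches of CANNTG. Of the 7 members, 5 held CANNTG, with 4 matches in NEUROD1, 3 in NEUROD4, 2 in NEUROD2, 1 each in ATOH1 and NEUROD6 and 0 in NEUROG1 and NEUROG2. The 3 matches of NEUROD4 were CAGCTG, which 16.6% of promoters held. Among the members, NEUROD1 and NEUROD2 held 1 match of CAGATG each, shown here because they are the only ones, with the motif in capitals and the sequence on the strand of the gene, at chr15:87180179-87180203 (minus) and chr12:22709459-22709488 (plus).
NEUROD1: ctggcgaCAGATGggccactttctt
NEUROD2: agtagagagtgaCAGATGgcggcgggtccc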

How the data were processed

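Raw read counts per gene and per exon were deposited for whole fetal brains, and the authors made them by trimming with Trimmomatic, aligning to Sscrofa11.1 with HISAT2 and counting with featureCounts against Ensembl genes. Strand and multi-mapping options are not given in the sources used here. The deposited counts of repeat runs were summed, which gave 18 libraries from 22 columns. Of 31908 genes, 16325 passed edgeR's filterByExpr. Groups came from the labelled gestation day and fetal sex. A model of 6 groups was fitted with edgeR 4.0.16 quasi-likelihood tests and TMM in R 4.3.3, with Benjamini-Hochberg adjustment over all genes tested and a threshold of 0.05. Standard errors and 95% intervals were taken from the F statistic. Intervals and floors from counts cover counting error only. The fit was tested on simulated data. RefSeq models of the same build gave coding stretches and promoters. Names came from the deposited table, and 782 IDs without one from a table of gene names.

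The members and lists were chosen with earlier results of these data known. Named genes were all 7 members, up to 3 genes of each pathway list and period called in both sexes in the same direction, ranked by the smaller change, and for each member of at least 1 CPM on average the 3 genes with the highest r of log2 CPM (prior count 2). BARHL1, ZIC1, CBLN1, NHLH1, NHLH2 and PTF1A were named after their values were seen. Alternatives were DESeq2 1.42.0, no TMM, other filters, only the groups compared, each library left out, litter (inferred from equal litter size on the same day) as a block, and, chosen after seeing the data, a first-exon covariate and leaving out unusual libraries. BHLHE22, BHLHE23, INSM1 and several markers were not analysed here, and 1 gene that the rule on r names is not reported here.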

Additional observations from a re-analysis of the deposited data

Results flagged for a closer look

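Over the 21 sets of 6 libraries of a gestation day, 5 had a highest or lowest library far from the other 5 by Dixon's criterion on CPM. Its rate of about 1 in 20 sets by chance holds for normal values. These sets pool both sexes and, for ATOH1, hold libraries at 0. Whether the 5 flagged sets exceed chance was therefore not tested. ATOH1 was at 0.838 CPM in female GD60 replicate 3 against 0 to 0.314 in the others, and at 1.82 CPM in male GD90 replicate 1 against 0 to 0.300. NEUROD4 was at 9.22 CPM in female GD60 replicate 5 against 5.22 to 6.29, and NEUROD2 at 719 CPM in male GD60 replicate 16 against 493 to 565. NEUROD1 was at 23.2 CPM in male GD45 replicate 17 against 36.1 to 42.7.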

How the results depend on the processing

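Of 409 recomputed log2 fold changes, 391 kept their direction and their side of the threshold, and 42 of 42 mean levels stayed within 1 SD. Of 149 recomputed counts of called members, 138 equalled the reported count and 148 stayed within 1.5 times it. Most of these counts are of the sex and interaction comparisons, where the reported count was 0 and stayed 0. A fall from 3 to 2 counts as within 1.5 times, so the lost female NEUROG2 calls do not show there. Only the libraries of the groups compared gave 0 members in males from GD45 to GD60. NEUROG1 (-3.14, edgeR adjusted p = 0.101) and NEUROD4 (-1.98, 0.0761) no longer passed. In females the same setting kept 3 called members, and the cause of the male loss was not tested. NEUROG2 in males passed with no filter (-1.37, 0.0333), DESeq2 (-1.37, 0.0205), the first-exon covariate (-1.32, 0.00145), without the 2 libraries lowest in first exons (-1.73, 0.00103) and without male GD45 replicate 17; the cause was not tested. Leaving out 1 library gave 2 to 3 called members in each sex from GD45 to GD60 and 5 from GD60 to GD90. NEUROG2 in females ran from -1.94 to -1.38. Directions turned for ATOH1 in males from GD45 to GD60 (-3.94 to 0.69), NEUROD2 in males (-0.25 to 0.02), NEUROD1 in females from GD60 to GD90 (-0.41 to 0.09), and ATOH1 (-3.17 to 4.05) and NEUROD1 (-0.03 to 0.83) in males. Without the GD90 litter of 10 the last 2 were -3.17 and -0.03. With litter as a replicate block, 0 members were called between sexes or in the interactions, as without it. The labels' replicate numbers are unique to a piglet and pair no samples. No TMM and exon counts left 5 members falling in mean level from day to day. Low counts limit ATOH1, and NEUROG1 and NEUROD4 at GD90.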
